A study of Penicillium oxalicum with 6 samples.

Results

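Penicillium oxalicum is a filamentous fungus that secretes enzymes for breaking down plant polysaccharides. The 3 genes described here encode starch-degrading enzymes: a glucoamylase (PDE_09417), an alpha-amylase (PDE_01201) and an alpha-glucosidase (PDE_04454). They were picked by identifier, with their values in glucose already known, from a table of 8902 identified genes, and each of the 3 passed the minimum level used below. Their values in the 3 glucose libraries are therefore descriptions, and no test was applied to them.

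Gene expression was profiled by sequencing short cDNA tags next to NlaIII sites in mycelia of 3 strains and 2 media. M12 carries a mutation in pyrG (pyrGQ226*) that makes it require uracil, is derived from the wild type 114-2, and is taken here as the parent strain, which the labels do not state. In Dmtr23B the gene mtr23B is knocked out, and Rmtr23B is the strain complemented with it. Mycelia of each strain were pre-grown for 20 h at 30 °C on 2% glucose in Vogel's medium, then washed and moved for 24 h to the same medium with 2% glucose, or to 1% cellulose with 1% wheat bran. The labels do not say whether Dmtr23B and Rmtr23B keep the pyrG mutation, what drives the reintroduced gene, or how many transformants or cultures were used. The sources used here pair mtr23B with no PDE identifier, so the deletion was not checked in the libraries.

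Each strain and medium has 1 library, so no difference below has a replicate check, and strain, culture and library cannot be told apart. In bulk mycelium, fewer cells that express a gene and less RNA in each cell cannot be told apart either. In the glucose libraries 2048846 tags of M12, 2013784 of Dmtr23B and 2147854 of Rmtr23B were assigned to genes, 60.09% to 63.93% of the library totals. Levels are given as TPM, tags per 1000000 of the library total, and are not divided by gene length. The most abundant transcript, PDE_09832, took 8.26% of all tags in M12, 0.28% in Dmtr23B and 16.6% in Rmtr23B. The columns for cellulose and wheat bran were not used by gene, because their rows did not follow the identifiers. Spearman's rho between rows was 0.851 to 0.945 within glucose and 0.836 to 0.919 within cellulose and wheat bran, but -0.009 to 0.002 between the media. A median of 156 to 234 TPM for 60 genes of ribosomal proteins in glucose stood beside 8.87 to 12.2 TPM in the other medium, where the median of all rows was 10.6 to 12.6 TPM.

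Starch is a polymer of glucose that fungi digest outside the cell. Alpha-amylase cuts inside the chain, glucoamylase removes glucose from its ends, and alpha-glucosidases, also called maltases, split maltose and other short products into glucose. In aspergilli, starch and maltose induce such genes through the zinc-finger regulator AmyR, and glucose represses many of them through CreA. The deposited annotation gives PDE_09417 glucan 1,4-alpha-glucosidase activity, another name of glucoamylase activity, with starch binding. PDE_01201 has alpha-amylase activity, calcium binding and starch binding. PDE_04454 has only hydrolase activity and cation binding, and its best match is a probable alpha-glucosidase (maltase) of Claviceps purpurea. Its deposited KEGG pathways join starch and sucrose metabolism with the sulfur relay system and folate biosynthesis, so the assignment of PDE_04454 is less clear than that of the other enzymes. Starch binding was annotated for 2 genes of the table, which are the glucoamylase and the alpha-amylase described here.

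The glucoamylase and the alpha-amylase were highest in M12, lower in Dmtr23B and lowest in Rmtr23B. The alpha-glucosidase had another order, with its highest level in Rmtr23B. For none of the 3 genes was Rmtr23B within 2-fold of M12.

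The glucoamylase PDE_09417 had 7774 tags in M12, 2655 in Dmtr23B and 377 in Rmtr23B. These are levels of 2314 TPM (exact Clopper-Pearson 95% interval 2263 to 2366), 792 TPM (762 to 823) and 112 TPM (101 to 124). M12 was 2.92-fold above Dmtr23B (exact binomial 95% interval 2.80 to 3.05) and 20.6-fold above Rmtr23B (18.6 to 22.9). Dmtr23B was in turn 7.06-fold above Rmtr23B (6.34 to 7.89). All intervals here cover counting error only, since the tags were amplified by PCR and no molecular identifiers are mentioned.

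The alpha-amylase PDE_01201 followed the same order. It had 3476 tags in M12, 1577 in Dmtr23B and 231 in Rmtr23B, or 1035 TPM (1001 to 1070), 471 TPM (448 to 494) and 68.8 TPM (60.2 to 78.2). M12 was 2.20-fold above Dmtr23B (2.07 to 2.34) and 15.1-fold above Rmtr23B (13.2 to 17.3), and Dmtr23B was 6.84-fold above Rmtr23B (5.96 to 7.89). The intervals of the 3 libraries do not overlap for either enzyme.

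The alpha-glucosidase PDE_04454 had 218 tags in M12, 158 in Dmtr23B and 1154 in Rmtr23B. Its levels were 64.9 TPM (56.6 to 74.1), 47.2 TPM (40.1 to 55.1) and 343 TPM (324 to 364). Rmtr23B was 5.29-fold above M12 (4.58 to 6.15) and 7.29-fold above Dmtr23B (6.17 to 8.66). M12 and Dmtr23B were closer, with M12 1.38-fold higher (1.12 to 1.70). That ratio stayed below 2-fold, and the counting interval holds none of the spread between cultures.

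**Figure D1:**
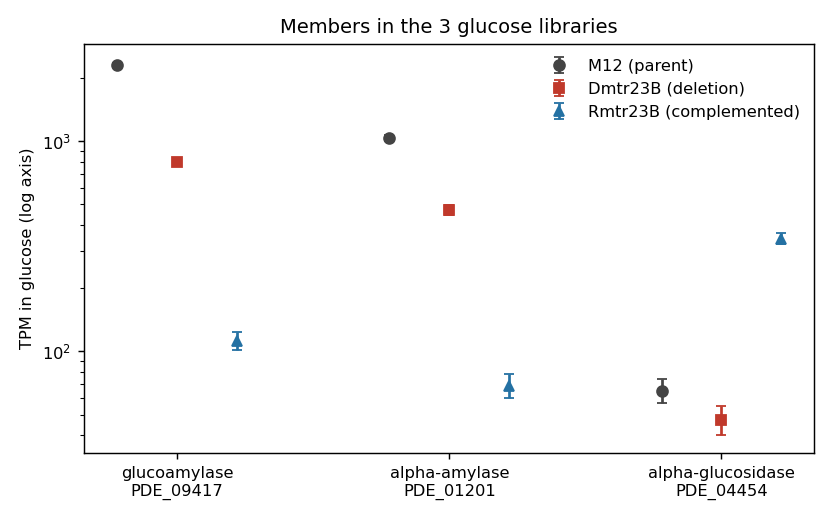
Level (TPM, log axis) of the 3 genes in the glucose libraries of M12, Dmtr23B and Rmtr23B, with exact 95% counting intervals as bars and 1 library per point. The glucoamylase goes from 2314 to 792 to 112 TPM and the alpha-amylase from 1035 to 471 to 68.8 TPM, while the alpha-glucosidase is highest in Rmtr23B, at 343 TPM.

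Ratios of tags between these genes inside 1 library do not depend on how libraries are scaled. For every alpha-amylase tag there were 2.24 glucoamylase tags in M12 (2.15 to 2.33), 1.68 in Dmtr23B (1.58 to 1.79) and 1.63 in Rmtr23B (1.38 to 1.93). The largest of these ratios was 1.37 times the smallest, while the levels of the enzymes ranged over 20.6-fold and 15.1-fold. The ratio of glucoamylase to alpha-glucosidase tags was 35.7 in M12 (31.2 to 41.0), 16.8 in Dmtr23B (14.3 to 19.9) and 0.327 in Rmtr23B (0.290 to 0.367). In Rmtr23B alone, the alpha-glucosidase had more tags than either of the other enzymes, 3.06 per glucoamylase tag (2.72 to 3.45) and 5.0 per alpha-amylase tag (4.33 to 5.78).

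To place the 3 genes in the libraries, all genes with at least 10 TPM in 1 of the 2 libraries compared were used, about 34 tags, and differences were taken as log2 of TPM + 1. A gene was counted as higher or lower at 2-fold or more. Between Rmtr23B and M12, 4.52% of 5226 genes were higher in Rmtr23B and 10.8% were lower. The glucoamylase differed there by -4.35, and 1 gene had a larger decrease. The alpha-amylase differed by -3.89, and 7 genes had larger decreases. The alpha-glucosidase differed by 2.39, and 26 genes were further up.

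Between Dmtr23B and M12 the 3 genes were nearer to the bulk of genes, of which 14.6% of 5599 were higher and 10.2% were lower. The difference was -1.55 for the glucoamylase, with 382 genes further down, and -1.14 for the alpha-amylase, with 509 further down. The alpha-glucosidase, at -0.45, had 1040 genes below it. The median gene was itself shifted, by 0.32 in this comparison, by -0.14 between Rmtr23B and M12, and by 0.47 between Dmtr23B and Rmtr23B. Scaled by median-ratio size factors, which bring those medians near 0, Dmtr23B differed from M12 by -1.82, -1.41 and -0.72 for glucoamylase, alpha-amylase and alpha-glucosidase. Under that scaling the split of all genes between Dmtr23B and M12 turned from 816 higher and 572 lower to 459 higher and 744 lower. No member changed direction in any comparison under the scalings tried.

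Between Dmtr23B and Rmtr23B, 25.8% of 5620 genes were higher in Dmtr23B and 11.1% lower. The glucoamylase and the alpha-amylase differed by 2.81 and 2.76, with 137 and 145 genes further up. The alpha-glucosidase differed by -2.84, with 205 genes further down. These comparisons share libraries in pairs, so each follows from the other ones and is no independent evidence.

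**Figure D2:**
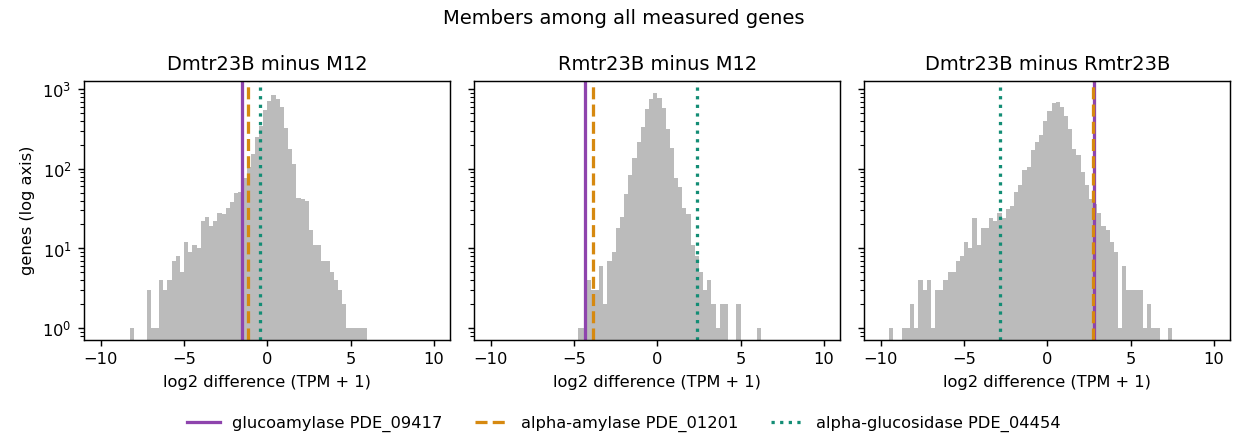
Histograms (grey, log axis of gene number) of the log2 difference in TPM + 1 for all genes with at least 10 TPM in either library of each pair of strains, with vertical lines for the 3 genes. Glucoamylase (-4.35) and alpha-amylase (-3.89) lie at the far left between Rmtr23B and M12, and the alpha-glucosidase (2.39) on the right.

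The other genes of starch and maltose hydrolysis were taken by their product description. Besides the 3 genes above, 7 were found, and all 7 reached 10 TPM in each comparison. Between Rmtr23B and M12, 2 of the 7 were higher and 3 lower, beside the 4.52% and 10.8% of all genes. With 7 genes such shares say little, and the 2 higher ones, PDE_04151 and PDE_04152, may not be independent, as described below. The median difference was -0.91, beside -0.14 over all genes. Between Dmtr23B and M12, 3 were higher and 1 lower, beside 14.6% and 10.2%, with a median of 0.69 beside 0.32. After median-ratio scaling 1 was higher and 1 lower, beside 459 and 744 over all genes, so that count depends on the scaling. The 2 higher and 3 lower in Rmtr23B did not move.

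The glucan 1,4-alpha-glucosidase match PDE_05527 and the alpha-glucosidases PDE_03966 and PDE_00400 were lowest in Rmtr23B by over 2-fold. Unlike the glucoamylase and the alpha-amylase, none of them was 2-fold lower in Dmtr23B than in M12. The alpha-glucosidase PDE_03966, annotated with maltose alpha-glucosidase activity, had 1066 tags in M12, 1713 in Dmtr23B and 55 in Rmtr23B. Its levels were 317, 511 and 16.4 TPM, with M12 19.4-fold above Rmtr23B (14.8 to 25.9) and Dmtr23B 1.61-fold above M12 (1.49 to 1.74). The alpha-glucosidase PDE_00400 stood at 152, 136 and 25.9 TPM in M12, Dmtr23B and Rmtr23B, with M12 5.85-fold above Rmtr23B (4.65 to 7.43). PDE_05527, described by the same name as the glucoamylase, stood at 62.5, 135 and 16.1 TPM, with M12 3.89-fold above Rmtr23B (2.87 to 5.35) and Dmtr23B 2.16-fold above M12 (1.83 to 2.56). A second alpha-amylase, PDE_04684, stood at 102, 156 and 53.6 TPM and was 1.90-fold higher in M12 than in Rmtr23B (1.58 to 2.28), below the 2-fold limit. Including it, 6 of the 10 genes of the list had their lowest level in Rmtr23B. The 6 include the glucoamylase and the alpha-amylase, which were chosen with these values known. The share of all genes lowest in Rmtr23B was not counted. The median gene was itself lower there, by -0.14 against M12, and Dmtr23B was above Rmtr23B by 0.47.

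Both genes described as maltases had the direction of PDE_04454 in Rmtr23B. The maltase PDE_04151 had 1254 tags in M12, 5184 in Dmtr23B and 22821 in Rmtr23B, that is 373, 1547 and 6793 TPM. Its deposited terms are mixed, joining maltose alpha-glucosidase activity with zinc ion binding, DNA binding and RNA polymerase II transcription factor activity. Rmtr23B was 18.2-fold above M12 (17.2 to 19.3) and Dmtr23B 4.14-fold above it (3.9 to 4.41). The maltase PDE_04152, with the next locus number and the same best match in Talaromyces stipitatus, had 32, 74 and 338 tags. There Rmtr23B was 10.6-fold above M12 (7.34 to 15.7) and Dmtr23B 2.32-fold (1.51 to 3.63). Since the rule for tags shared by similar genes is not given in the sources used here, these 2 values may not be independent. In Dmtr23B PDE_04454 was not above M12, unlike both maltases. The term maltose alpha-glucosidase activity was deposited for 5 genes, of which PDE_00400, PDE_03966 and PDE_04151 are described above. The others have no informative description and were looked up after the values were seen. PDE_02648 had 113, 46 and 124 tags in M12, Dmtr23B and Rmtr23B, and PDE_03010 had 577, 224 and 542, so both were lowest in Dmtr23B. The last gene of the list, PDE_02559, carries a description that joins alpha-glucosidase with nicotinamidase, and whether it acts on starch is not known from the table. It had 45 tags in M12, 0 in Dmtr23B and 36 in Rmtr23B. Set against a floor of 3 tags, M12 was 15.0-fold above Dmtr23B, a value that rests on the floor chosen. The exact 95% lower limit, taken from the count of 0 itself, was 11.7.

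**Figure D3:**
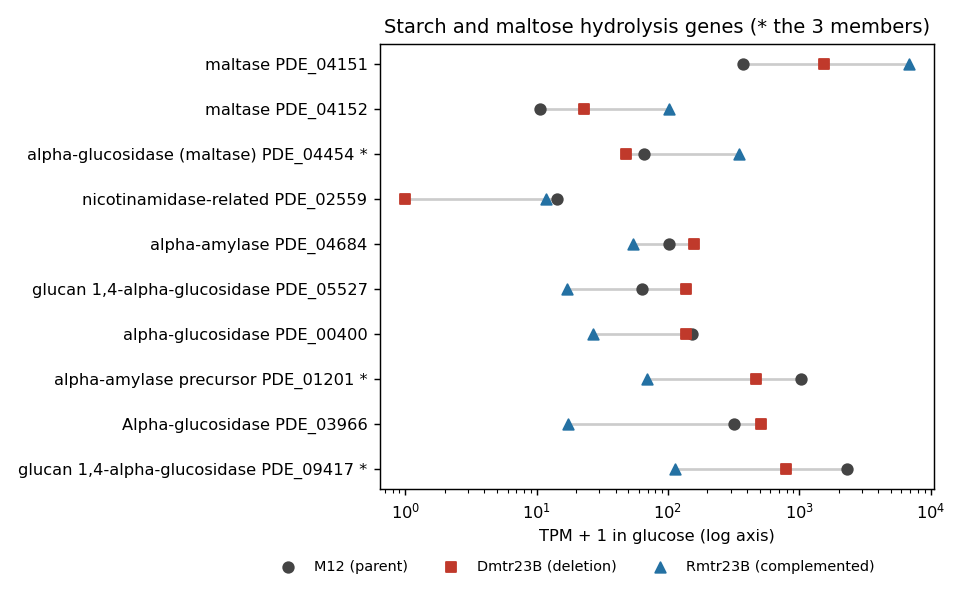
TPM + 1 (log axis) of the 10 genes described as enzymes of starch and maltose hydrolysis in the 3 glucose libraries, ordered by the difference between Rmtr23B and M12. The maltases (6793 TPM for PDE_04151) and PDE_04454 are highest in Rmtr23B, and the glucoamylase PDE_09417 (112 TPM) and the alpha-glucosidase PDE_03966 (16.4 TPM) are among the genes that are lowest there.

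The wider pathway was taken from the deposited KEGG annotation for starch and sucrose metabolism, which held 149 genes, 146 of them besides the 3 described here. It also covers cellulose and pectin degradation. Between Rmtr23B and M12 9 of 84 measured genes were higher and 14 lower, 10.7% and 16.7%, beside 4.52% and 10.8% of all genes. The median was -0.29 beside -0.14. The higher genes include PDE_04151 and PDE_04152, and the lower ones PDE_03966, PDE_05527 and PDE_00400, all counted above in the starch list. The branching enzyme PDE_07278 of the glycogen list below is also among the lower ones. The counts of the pathway and of these lists are therefore not independent. Between Dmtr23B and M12 12 were higher and 10 lower, 14.3% and 11.9%, shares close to the background of 14.6% and 10.2%. After median-ratio scaling 6 were higher and 14 lower, beside 459 and 744 over all genes. Between Dmtr23B and Rmtr23B 29 of 89 were higher in Dmtr23B and 17 lower, 32.6% and 19.1%, beside 25.8% and 11.1% of all genes. After median-ratio scaling 17 were higher and 28 lower. Over all genes, 1452 higher and 624 lower became 732 and 975, so the balance of that pair turned with the scaling in both.

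Among the genes of this pathway with the largest differences was PDE_03964, which had 53 tags in M12, 77 in Dmtr23B and 0 in Rmtr23B. Its best match is an undescribed protein of Penicillium chrysogenum, and its deposited terms are nucleus, zinc ion binding and sequence-specific RNA polymerase II transcription factor activity. The floor of 3 tags set for a count of 0 is 0.893 TPM in that library, against 15.8 TPM in M12 and 23.0 TPM in Dmtr23B. By that floor, PDE_03964 was 17.7-fold lower in Rmtr23B than in M12 and 25.7-fold lower than in Dmtr23B, values that rest on the floor chosen. The exact 95% lower limits, taken from the count of 0 itself, were 13.9 and 20.4. M12 and Dmtr23B lay closer, with Dmtr23B 1.46-fold higher (1.01 to 2.11). Whether this gene has a part in the levels of the glucoamylase and the alpha-amylase was not tested.

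Other genes named by size in this pathway act on other substrates or are undescribed. The exo-polygalacturonase PDE_09285, a pectin-degrading enzyme, stood at 61.0, 31.6 and 5.06 TPM in M12, Dmtr23B and Rmtr23B, in the same order as the glucoamylase. The polygalacturonase PDE_03218 stood at 14.6, 153 and 10.7 TPM, highest in Dmtr23B. PDE_08250 (38, 0 and 110 tags) and PDE_09970 (154, 11.9 and 142 TPM) have no informative description and were lowest in Dmtr23B. The endoglucanase PDE_05193, a cellulase, had 5, 0 and 34 tags, too few in 2 of the libraries for a ratio to M12 to be read closely.

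Locus numbers are the only indication of gene order in the table, and neighbours within 4 numbers were looked up after the values were seen. The alpha-glucosidase PDE_03966 and PDE_03964 are consecutive rows of the table, and both were lowest in Rmtr23B. The next row on the other side, PDE_03967, had 87 tags in M12, 291 in Dmtr23B and 63 in Rmtr23B, and PDE_03963, a methyltransferase match, had 19, 11 and 22. PDE_03968 had 9, 13 and 0 tags, too few to compare.

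Around the maltase PDE_04151 lies a putative sugar transporter, PDE_04150, with 156, 697 and 506 tags. It was 4.48-fold above M12 in Dmtr23B (3.76 to 5.36) and 3.24-fold above it in Rmtr23B (2.71 to 3.91). The maltase PDE_04152, with 32, 74 and 338 tags, also lies there and rose with PDE_04151. Other loci there did not. PDE_04154 had 779, 1162 and 393 tags and was lowest in Rmtr23B, and PDE_04149 had 79, 0 and 48 tags. Beside PDE_04454 lie a C6 transcription factor match (PDE_04455; 133, 313 and 146 tags in M12, Dmtr23B and Rmtr23B) and a major facilitator superfamily transporter (PDE_04456; 40, 93 and 179 tags). The transporter and the TauD dioxygenase match PDE_04457 (312, 598 and 989 tags) were highest in Rmtr23B, as was PDE_04454, but they were also higher in Dmtr23B than in M12, which PDE_04454 was not. On the other side of PDE_04454, the match to a potassium channel beta subunit PDE_04452 (288, 206 and 588 tags) had the order of PDE_04454, highest in Rmtr23B and lowest in Dmtr23B, at 2.04-fold above M12 in Rmtr23B (1.77 to 2.36). Between these loci, the molybdopterin-binding oxidoreductase match PDE_04453 had 103, 53 and 97 tags and was also lowest in Dmtr23B, but not higher in Rmtr23B than in M12. Next to the glucoamylase, PDE_09418 had 39, 20 and 34 tags and PDE_09415 had 30, 40 and 49, both at low levels. PDE_09413, also within 4 numbers, had 651, 654 and 863 tags. None of these neighbours had the order of the glucoamylase. Next to the alpha-amylase, the extracellular lipase PDE_01200 had 204, 55 and 63 tags. PDE_01202, with 26, 15 and 10 tags, was below 10 TPM in each of the 3 libraries. Its M12 value was 2.6-fold above Rmtr23B (1.21 to 6.04). Counting error did not separate M12 from Dmtr23B (ratio interval 0.882 to 3.51) or Dmtr23B from Rmtr23B (0.632 to 3.74). No order of the 3 strains is therefore read for PDE_01202. Further out, PDE_01199 (49, 219 and 45 tags) and PDE_01198 (13, 118 and 16 tags) were highest in Dmtr23B.

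**Figure D4:**
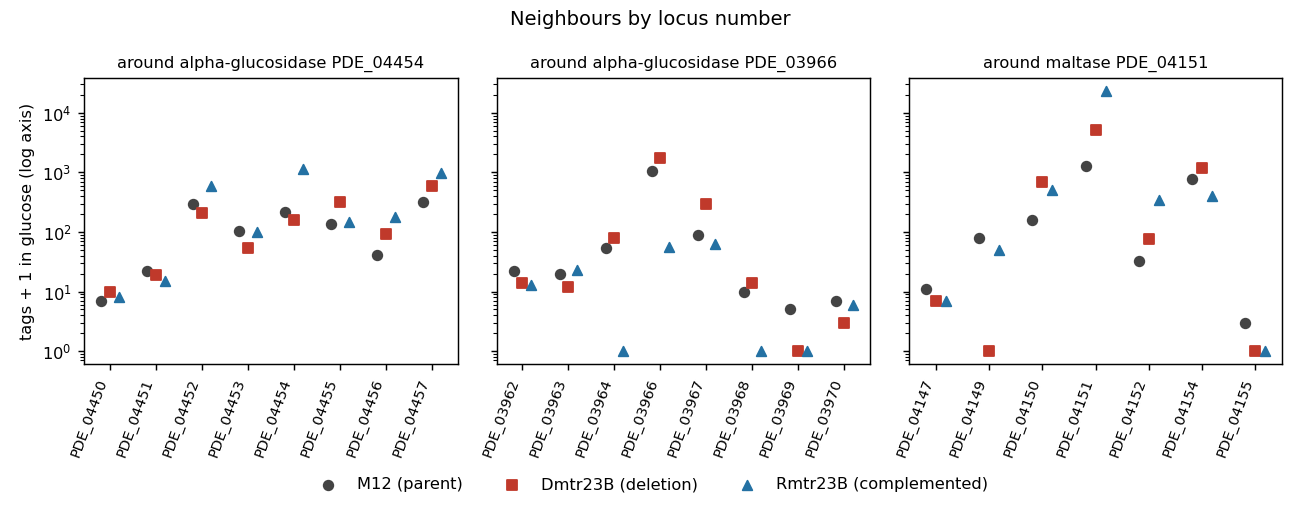
Tags + 1 (log axis) in the 3 glucose libraries for genes within 4 locus numbers of the alpha-glucosidase PDE_04454, the alpha-glucosidase PDE_03966 and the maltase PDE_04151. PDE_03964 has 0 tags in Rmtr23B beside 53 in M12, while the maltase PDE_04151 reaches 22821 tags there.

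Uptake of the sugars that these enzymes release was described by a list of transporters, which also took in nucleotide-sugar transporters of internal membranes by their name. Between Dmtr23B and M12, 7 of 14 measured genes were higher and 1 lower, 50% and 7.14%, beside 14.6% and 10.2% of all genes, and the median was 1.18 beside 0.32. Between Rmtr23B and M12, 2 were higher and 6 lower, 14.3% and 42.9%, beside 4.52% and 10.8%. The facilitated glucose transporter PDE_00652 stood at 657, 1809 and 132 TPM in M12, Dmtr23B and Rmtr23B, with M12 4.97-fold above Rmtr23B (4.49 to 5.52). The sugar transporter PDE_09377 stood at 2708, 9564 and 964 TPM, so it too was lowest in Rmtr23B. The maltose permease PDE_03571 (6.85, 83.3 and 5.95 TPM) and the maltose transporter PDE_09994 (37.8, 307 and 27.4 TPM) were highest in Dmtr23B and differed by less than 2-fold between the other strains. Of the other transporters named by size, the hexose transporter PDE_08035 stood at 23.2, 140.0 and 10.7 TPM. The monosaccharide transporter PDE_01388 stood at 4.17, 55.2 and 15.8 TPM, and PDE_00197, of the same description, at 35.4, 10.7 and 9.82 TPM. The last was highest in M12, as the glucoamylase was, but counting error did not separate Dmtr23B from Rmtr23B (ratio 1.09, 0.663 to 1.81). The same holds for the sugar transporter STL1 match PDE_00881, at 21.7, 11.3 and 8.33 TPM (ratio 1.36, 0.813 to 2.30). It also holds for the monosaccharide transporter PDE_01704, at 38.1, 22.7 and 17.3 TPM (ratio 1.31, 0.921 to 1.88). PDE_00881 and PDE_01704 were within 2-fold of M12 in Dmtr23B. With median-ratio or TMM scaling, 2 genes of the list were lower in Dmtr23B than in M12. The nucleotide-sugar transporter PDE_06968, at 16.4, 15.5 and 11.3 TPM, showed no order beyond counting error. Its M12 value was 1.45-fold above Rmtr23B (0.940 to 2.25), its largest difference.

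Glucose storage and glucose sensing were described by other lists. In the list of glycogen and trehalose genes, 4 were measured. Between Rmtr23B and M12 1 was lower and 0 higher, 25% and 0%, beside 10.8% and 4.52% of all genes. Between Dmtr23B and M12 1 was lower and 0 higher, beside 10.2% and 14.6%. With so few genes these shares say little, and at 3-fold 0 were lower in either comparison. The first was the 1,4-alpha-glucan-branching enzyme PDE_07278, which forms the branches of glycogen, at 71.4, 114 and 32.4 TPM in M12, Dmtr23B and Rmtr23B. After median-ratio scaling it was within 2-fold of M12 in Rmtr23B, and 1 gene of the list was higher there. The other was the neutral trehalase PDE_08296, which splits trehalose into glucose, at 31.0, 11.9 and 61.9 TPM. Its highest level in Rmtr23B and lowest in Dmtr23B is the order of PDE_04454.

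Of 8 genes of glucose phosphorylation and carbon catabolite regulation, 3 reached the minimum between Dmtr23B and M12, of which 2 were higher and 0 lower, beside 14.6% and 10.2% of all genes. With median-ratio or TMM scaling 1 was higher, and at 3-fold 0 were. They were a ubiquitin hydrolase match to CreB, PDE_08362, at 28.9, 70.4 and 14.6 TPM, and a hexokinase family protein, PDE_08226, at 7.14, 21.5 and 8.63 TPM. The carbon catabolite repressor PDE_03168, which represses polysaccharide-degrading enzymes in glucose in many fungi, stood at 261, 294 and 178 TPM. Its M12 value was 1.47-fold above Rmtr23B (1.32 to 1.63), within 2-fold in each comparison. Between Rmtr23B and M12 2 genes of this list were measured and 0 were higher or lower.

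The genes most like each of the 3 were found among 1858 others with an informative description and at least 10 TPM in any glucose library, by the Euclidean distance between log2(TPM + 1) profiles over 3 libraries, each centred on its mean. With only 3 libraries such likeness is a weak description. The gene nearest to the glucoamylase was the alpha-amylase and the reverse, at a distance of 0.358. For both, the next were the exo-polygalacturonase PDE_09285, at 0.713 from the glucoamylase and 0.383 from the alpha-amylase, and the threonine aldolase PDE_08440, at 1.09 and 0.744, an enzyme of amino acid metabolism at 124, 84.2 and 16.4 TPM in M12, Dmtr23B and Rmtr23B. The alpha-glucosidase PDE_04454 was far from both, at 5.12 from the glucoamylase (rank 1823 of 1858) and 4.87 from the alpha-amylase (rank 1818). The genes nearest to it were a Bys1 family protein, PDE_09040, at 0.171 (12.2, 7.16 and 61.9 TPM), a glycoside hydrolase 45 protein, PDE_07928, at 0.180 (6, 4 and 55 tags), and the cellobiohydrolase PDE_07945, at 0.386 (12, 5 and 53 tags). The last 2 match enzymes of cellulose breakdown and had few tags in M12 and Dmtr23B. Both reached 10 TPM in Rmtr23B alone, where PDE_04454 is also highest, so the minimum itself favours such profiles. Counting error did not separate M12 from Dmtr23B for PDE_07928 (ratio interval 0.355 to 7.21) or PDE_07945 (0.785 to 8.67). The added 1 TPM also shrinks differences at such low levels. PDE_07928 was 9.17-fold above M12 in Rmtr23B (3.95 to 26.1), beside 5.29-fold for PDE_04454. Their small distances are therefore not read as a measured likeness.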

How the data were processed

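Libraries were made from cDNA cut by NlaIII, with tags of 17 bp released by MmeI, amplified by PCR and read over 35 bp, per the labels' protocols. The deposited table gives tag counts per gene, not normalised, and the library total, per the file headers. It also gives deposited TPM values, which equal counts per 1000000 of that total to within 0.005 TPM. Not given in the sources used here are the tag mapper, genome build, annotation version, strand use and rule for shared tags. Gene names come from the best protein match in the table. A RefSeq table of another P. oxalicum strain matched 0 identifiers, so no positions or sequences are given.

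Differences were computed as log2(TPM + 1), with at least 10 TPM in 1 of the 2 libraries compared and 2-fold as the limit. Ratios have exact binomial and levels exact Clopper-Pearson 95% intervals (scipy 1.17.1), and counts of 0 were set against 3 tags. No model with p-values was fitted: there is 1 library per strain and medium, and a fit that takes M12 and Rmtr23B as replicates would count their difference as spread. Alternatives were scaling to tags assigned to genes, TMM (edgeR 4.0.16) and median-ratio factors (DESeq2 1.42.0), a pseudocount of 0.5, no minimum and 3-fold. The 3 genes and the lists were chosen with earlier results of these data known. Named besides them were up to 8 genes per list past 2-fold in any pair of strains, by largest difference, and the 3 genes nearest to each member; neighbours and further genes of a list were named after their values were seen.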

Additional observations from a re-analysis of the deposited data

How the results depend on the processing

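All 9 differences of the 3 genes kept their direction under each of the 4 alternatives tried. Scaling by median-ratio or TMM factors moved 6 of them beyond the counting interval. The glucoamylase PDE_09417 became -1.82 and -1.82 (log2) between Dmtr23B and M12, -4.19 and -4.21 between Rmtr23B and M12, and 2.37 and 2.40 between Dmtr23B and Rmtr23B. The alpha-amylase PDE_01201 became -1.41 and -1.41 between Dmtr23B and M12 and 2.32 and 2.35 between Dmtr23B and Rmtr23B, and the alpha-glucosidase PDE_04454 -3.27 and -3.25 in the last. In the list of starch and maltose hydrolysis, the 3 genes higher in Dmtr23B than in M12 became 1 with either scaling and 1 at 3-fold. For the KEGG pathway, Dmtr23B against M12 gave 6 higher with either scaling, 5 higher and 4 lower at 3-fold, and 18 higher and 18 lower with no minimum. Rmtr23B against M12 gave 15 higher by median ratio, and 18 higher and 19 lower with no minimum. Dmtr23B against Rmtr23B, 29 higher and 17 lower as reported, gave 17 higher and 28 lower with either scaling, 14 higher and 10 lower at 3-fold, and 38 higher and 26 lower with no minimum. Over all genes, median-ratio and TMM scaling gave 459 and 464 higher in Dmtr23B than in M12, and 732 and 754 higher and 975 and 954 lower than in Rmtr23B. At 3-fold the counts were 262 and 375 (Dmtr23B higher and lower than M12), 89 and 176 (Rmtr23B against M12) and 595 and 400 (Dmtr23B against Rmtr23B). With no minimum, 1150 genes were higher and 896 lower in Dmtr23B than in M12, 441 higher and 895 lower in Rmtr23B than in M12, and 1987 higher and 956 lower in Dmtr23B than in Rmtr23B. The share of higher among called genes thus depends on the scaling, since the median gene moves with it. No paired analysis was possible because each strain and medium has 1 library, and no replicate could be left out. Depth limits genes under about 34 tags, and spread between cultures was not measured.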
